A study of Mus musculus with 288 samples.

Results

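The genes described here encode 48 liver enzymes that break amino acids down, or that carry out the steps linked to that breakdown, out of 21869 genes in the count tables. They were chosen by name from textbook pathways, by a rule that uses no measured value but with earlier results of these data known, and fall into 8 groups by substrate. All 48 had a gene in the count tables and all 48 passed the filter on low counts, as did 12228 genes in all. The livers came from male wild-type C57BL/6J mice, housed individually with running wheels and taken at 19 months of age (old mice) or 6 months (young mice). In the caloric restriction (CR) groups the ration was set at 70% of the ad libitum intake, and in the AL group food was available at all hours. The ration was not raised when AL mice ate more later in life, so that old CR mice were restricted more strongly relative to AL mice of their age than young CR mice were. CR-night-2h mice ate their meal within 2 h at the start of the dark phase, and CR-day-2h mice did so at the start of the light phase. CR-night-12h and CR-day-12h mice received a small pellet every 90 min over the 12 h of dark or of light, and CR-spread mice received a pellet every 160 min over the whole 24 h. Each of the 12 groups (6 feeding conditions at 2 ages) held 24 livers, 2 at each of 12 sampling times 4 h apart, named A and B at each time. Messenger RNA was sequenced to between 2796688 and 18706281 counted reads a liver, and the median depth of the AL groups was 9382950 reads in old and 9417006 in young mice. In the CR groups the median depth was 7341476 to 8549568 reads in old and 4866470 to 6149540 in young mice, so that young CR libraries were the shallower. Levels below are counts of a gene per 1000000 counted reads (CPM), scaled between libraries.

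The liver is the main site where most amino acids are degraded. Their nitrogen is moved by aminotransferases to glutamate and aspartate and leaves as urea, while the carbon skeletons are burned or used to make glucose and ketone bodies. Many of these enzymes are known to be induced by glucagon and glucocorticoids during fasting or on a high-protein diet, and to follow the daily cycle of feeding. The exception is branched-chain amino acid breakdown, which begins largely in muscle because the liver has little of the first aminotransferase.

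The 48 genes took up a median of 1.47% of all counted reads in old AL mice, against 2.04% in young AL mice. In the old CR groups the median share was 1.87 to 1.98%, against 2.17 to 2.40% in the young CR groups. On a scale that also takes account of transcript length (RPKM, as the authors computed it), the highest median levels in young AL mice were those of Hpd at 751, Gnmt at 744 and Mat1a at 693 RPKM. The lowest were those of Hibch at 7.31, Mccc1 at 3.18 and Sdsl at 2.94 RPKM. Thus the members spanned a wide range of levels, with a tyrosine-degrading enzyme and enzymes of methionine use at the top. Of the libraries, 2 stood apart from the other 286 by the highest scaling factors. They were the CR-day-12h liver of old mice at 0 h (B), with a factor of 1.48 and 0.795% of reads on the members, and the CR-night-2h liver of old mice at 28 h (B), with 1.41 and 0.887%. The factors of the other 286 ran from 0.82 to 1.30, and their shares of reads on the members from 1.19 to 3.09%. Results that moved without these 2 libraries are given with and without them.

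Old AL mice were compared with young AL mice to ask how the enzymes change with age under unrestricted feeding. Of the 48 members, 22 fell with age and none rose at an adjusted p under 0.05 and a fold change of at least 1.5 (edgeR quasi-likelihood test, Benjamini-Hochberg adjustment over 12228 genes), and 36 were lower on the adjusted p alone. Among all genes tested, 4.47% fell and 10.8% rose by the rule with both thresholds, and 25.3% were lower on the adjusted p alone. The median log2 fold change was -0.53 over the members and -0.011 over all genes. The falls were spread over all 8 groups, with 5 of 8 in glycine, serine and glyoxylate, 4 of 7 in methionine and homocysteine, 3 of 5 in phenylalanine and tyrosine and 3 of 4 in histidine. There were 2 of 4 in proline and ornithine, 2 of 6 in tryptophan, 2 of 6 in alanine, aspartate and glutamate, and 1 of 8 in branched-chain amino acids and lysine. The members nearest the fold threshold were Hgd at -0.59 and Sardh at -0.61 on the inner side, and Afmid at -0.54, Aldh4a1 at -0.53 and Bckdha at -0.52 on the outer side.

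**Figure D1:**
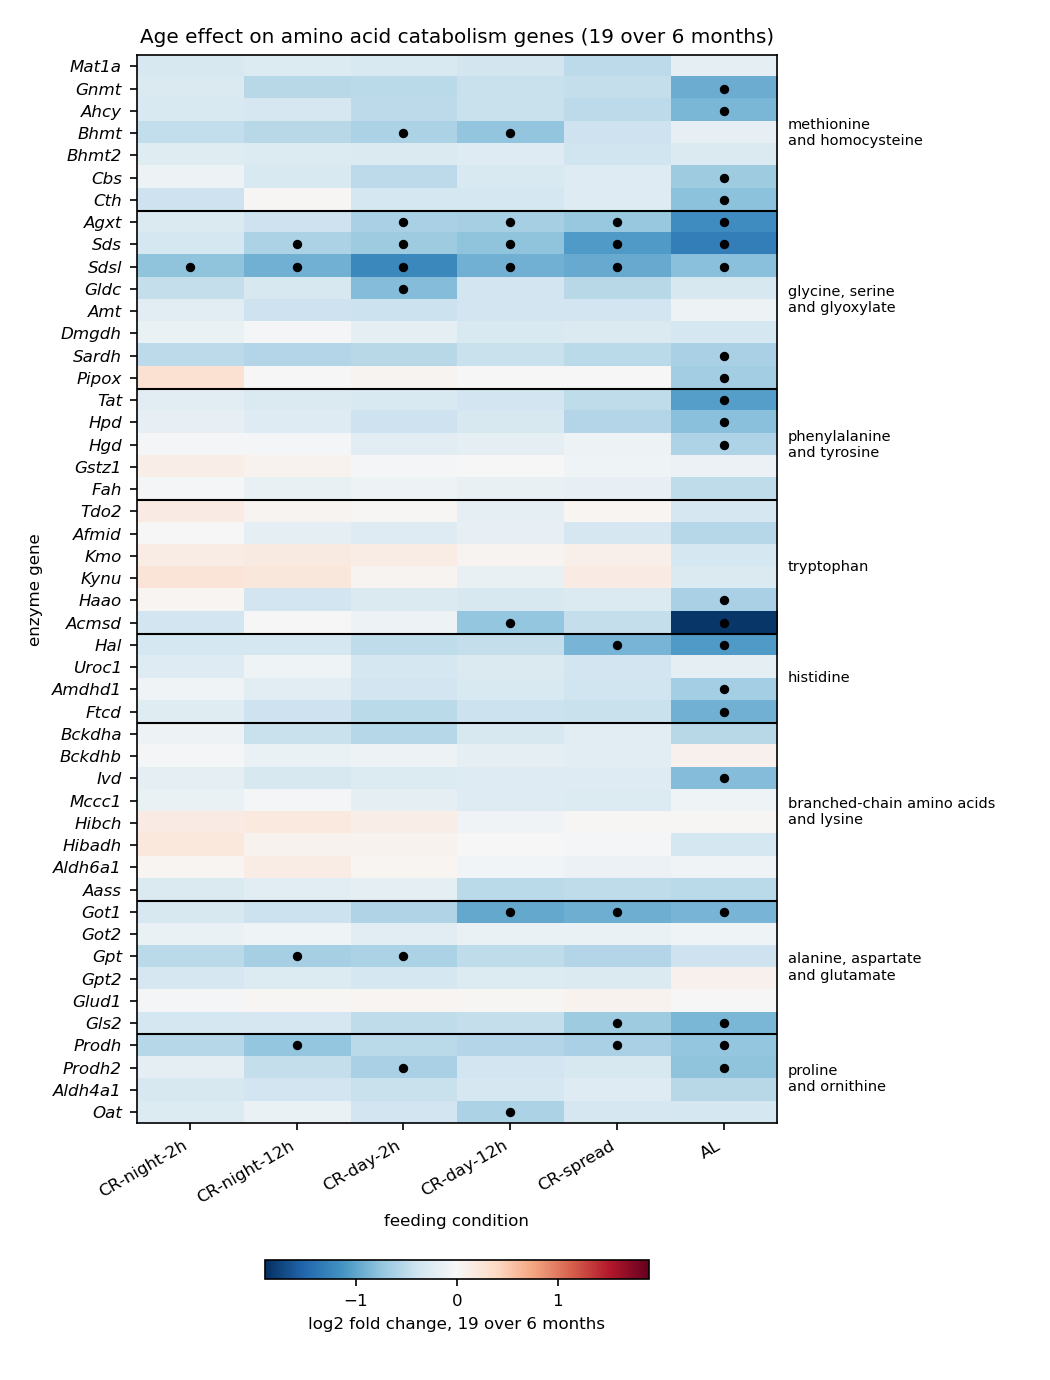
Age effect on the 48 enzyme genes in each feeding condition. Rows are genes grouped by pathway, columns are feeding conditions, colour is the log2 fold change of 19 over 6 months, and a black dot marks a change at an adjusted p under 0.05 and a fold change of at least 1.5 (24 livers a group). The AL column holds 22 dots and the CR columns between 1 and 7.

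In tryptophan breakdown, Acmsd had the most negative age estimate of all members. It encodes aminocarboxymuconate semialdehyde decarboxylase, which draws the kynurenine pathway away from the synthesis of quinolinate and NAD. Acmsd had a lowest, median and highest level of 4.17, 9.44 and 38.1 CPM in old AL mice, against 19.6, 37.0 and 102 CPM in young AL mice (log2 fold change -1.85, SE 0.21, edgeR adjusted p = 9.8e-15). The ranges overlapped, but 21 of 24 old livers lay below the lowest young one. Haao, the dioxygenase that forms the precursor of quinolinate just upstream of Acmsd, had 168, 233 and 327 CPM in old AL mice, against 219, 367 and 482 CPM in young AL mice (-0.62, SE 0.10, adjusted p = 2.8e-08). The other 4 enzymes of the group did not reach the fold threshold. Tdo2, the dioxygenase that opens the pathway, was at -0.32 (SE 0.12, adjusted p = 0.017), and Afmid, Kmo and Kynu lay between -0.54 and -0.28.

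The 300 bases around each RefSeq start (250 before and 50 after it, GRCm38.p6) were searched for short motifs. The core of a cyclic AMP response element (TGACG) was found in 5 of the 41 members that had a window (12.2%; Gstz1, Acmsd, Ftcd, Aass and Oat), against 20.8% of all 32851 windows. The full element TGACGTCA was found in no member and in 1.79% of all windows. The E-box CACGTG, the letters that the clock factors CLOCK and BMAL1 bind, was found in 1 member, Cbs, and in 7.15% of all windows. All motifs were searched on both strands, the core lies within the full element, and a match describes letters only. Member shares count genes, of which 3 had 2 windows, while the shares of all windows count each window once.

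Among the enzymes of glycine, serine and glyoxylate, Agxt and Sds had age estimates in AL mice of more than 2-fold. Agxt encodes the alanine-glyoxylate aminotransferase that keeps glyoxylate from becoming oxalate. It had 25.7, 58.3 and 126 CPM in old AL mice, against 60.9, 135 and 271 CPM in young AL mice (log2 fold change -1.18, SE 0.16, edgeR adjusted p = 2.6e-11). Sds encodes serine dehydratase, which turns serine into pyruvate for glucose synthesis. It had 16.6, 42.4 and 92.5 CPM in old AL mice, against 27.2, 88.7 and 387 CPM in young AL mice (-1.31, SE 0.25, adjusted p = 2.3e-06), with wide overlap. Sdsl, its paralogue, was expressed far lower and had 1.37, 2.77 and 4.44 CPM in old AL mice, against 2.81, 4.87 and 9.0 CPM in young AL mice (-0.80, SE 0.14, adjusted p = 5.1e-07). Of the enzymes that demethylate or oxidise sarcosine and pipecolate, Pipox had 140, 181 and 279 CPM in old AL mice, against 247, 296 and 380 CPM in young AL mice (-0.66, SE 0.076, adjusted p = 1.7e-14). All 24 old livers lay below the young median of Pipox, and 20 lay below the lowest young liver. Sardh, sarcosine dehydrogenase, had 282, 386 and 584 CPM in old AL mice, against 428, 600 and 853 CPM in young AL mice (-0.61, SE 0.088, adjusted p = 5.2e-10). Dmgdh, which acts just before Sardh in the same mitochondrial route, was at -0.33 (SE 0.072). Gldc and Amt, subunits of the glycine cleavage system, had age estimates of -0.30 (SE 0.15) and -0.10 (SE 0.11) in AL mice and did not pass the test.

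In methionine and homocysteine metabolism, the enzymes that use S-adenosylmethionine and clear homocysteine by transsulfuration fell, and those that make S-adenosylmethionine or return homocysteine to methionine did not pass the threshold. Gnmt, the glycine methyltransferase that consumes spare S-adenosylmethionine, had 296, 528 and 954 CPM in old AL mice, against 579, 1040 and 1520 CPM in young AL mice (log2 fold change -0.95, SE 0.11, edgeR adjusted p = 1.7e-13). Ahcy, which splits S-adenosylhomocysteine into homocysteine and adenosine, had 187, 342 and 687 CPM in old AL mice, against 402, 626 and 979 CPM in young AL mice (-0.87, SE 0.11, adjusted p = 8.0e-12). For both genes most of the old livers lay below the lowest young one, 16 of 24 for Gnmt and 18 of 24 for Ahcy. Cth, cystathionine gamma-lyase, had 56.9, 93.8 and 209 CPM in old AL mice, against 105, 171 and 256 CPM in young AL mice (-0.78, SE 0.12, adjusted p = 2.4e-09). Cbs, cystathionine beta-synthase, had 136, 196 and 337 CPM in old AL mice, against 156, 317 and 501 CPM in young AL mice (-0.67, SE 0.12, adjusted p = 4.9e-07), with more overlap. Mat1a, the liver S-adenosylmethionine synthase, was at -0.18 (SE 0.10, adjusted p = 0.12). The homocysteine methyltransferases Bhmt and Bhmt2 were at -0.16 (SE 0.25, adjusted p = 0.62) and -0.27 (SE 0.074, adjusted p = 0.00098).

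In histidine breakdown, the outer steps of the route had the more negative estimates. Ftcd, the last enzyme, which hands a formimino group to folate, had AL libraries that did not overlap between ages. It had 137, 184 and 226 CPM in old AL mice, against 243, 361 and 458 CPM in young AL mice (log2 fold change -0.92, SE 0.090, edgeR adjusted p = 5.5e-19). Hal, histidine ammonia-lyase, the first step, had 93.2, 131 and 278 CPM in old AL mice, against 181, 340 and 492 CPM in young AL mice (-1.08, SE 0.17, adjusted p = 8.5e-09). Of the steps between them, Amdhd1, the imidazolonepropionase, had 76.2, 104 and 152 CPM in old AL mice, against 79.7, 159 and 285 CPM in young AL mice (-0.64, SE 0.12, adjusted p = 1.8e-06). Uroc1, urocanase, was at -0.18 (SE 0.075).

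In tyrosine breakdown, the falls lay in the aminotransferase and the dioxygenases. Tat, tyrosine aminotransferase, a classical target of glucocorticoids and glucagon, had 346, 660 and 2580 CPM in old AL mice, against 875, 1250 and 3470 CPM in young AL mice (log2 fold change -1.05, SE 0.20, edgeR adjusted p = 2.4e-06). Hpd, which forms homogentisate, had 634, 1020 and 1900 CPM in old AL mice, against 1270, 1810 and 2600 CPM in young AL mice (-0.79, SE 0.11, adjusted p = 3.4e-11). Hgd, which opens the ring of homogentisate, had 311, 415 and 689 CPM in old AL mice, against 513, 621 and 871 CPM in young AL mice (-0.59, SE 0.069, adjusted p = 4.8e-14). Each gene overlapped between ages through a few old livers, since 18, 18 and 22 of the 24 old livers lay below the lowest young one for Tat, Hpd and Hgd. Fah and Gstz1, which finish the route to fumarate and acetoacetate, were at -0.48 (SE 0.067) and -0.11 (SE 0.063).

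In branched-chain amino acid and lysine breakdown, Ivd alone passed both thresholds. It encodes the isovaleryl-CoA dehydrogenase of leucine breakdown, and had 55.8, 74.3 and 109 CPM in old AL mice, against 96.9, 140 and 187 CPM in young AL mice (log2 fold change -0.83, SE 0.073, edgeR adjusted p = 9.1e-23). All 24 old livers lay below the young median of Ivd. The 7 others ran from -0.52 to 0.075. Bckdha and Bckdhb, subunits of the same branched-chain ketoacid dehydrogenase, were at -0.52 (SE 0.087, adjusted p = 5.2e-08) and 0.075 (SE 0.064, adjusted p = 0.33). The difference within the pair was not tested. The valine enzymes Hibch, Hibadh and Aldh6a1 lay between -0.33 and 0.028, Mccc1 of the leucine route was at -0.077, and Aass, which starts lysine breakdown, was at -0.51.

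Among the enzymes of alanine, aspartate and glutamate, Got1 and Gls2 fell. Got1 encodes the cytosolic aspartate aminotransferase, which is used in glucose synthesis and in the malate-aspartate shuttle. It had 64.0, 129 and 204 CPM in old AL mice, against 113, 212 and 615 CPM in young AL mice (log2 fold change -0.88, SE 0.23, edgeR adjusted p = 0.00054). Got2, its mitochondrial counterpart, had 222, 286 and 372 CPM in old AL mice, against 279, 303 and 363 CPM in young AL mice (-0.088, SE 0.053, adjusted p = 0.16). Got1 was thus the more variable of the pair between livers. Gls2, the liver glutaminase, had 109, 176 and 286 CPM in old AL mice, against 189, 326 and 448 CPM in young AL mice (-0.87, SE 0.11, adjusted p = 6.3e-13). Of the alanine aminotransferases, cytosolic Gpt was at -0.40 (SE 0.10, adjusted p = 0.00042) and mitochondrial Gpt2 at 0.078 (SE 0.10, adjusted p = 0.55). Glud1, glutamate dehydrogenase, was at 0.005 (SE 0.058). In proline and ornithine breakdown, Prodh had 47.6, 81.1 and 159 CPM in old AL mice, against 81.6, 129 and 232 CPM in young AL mice (-0.73, SE 0.15, adjusted p = 6.5e-06). Prodh encodes proline dehydrogenase, and Prodh2 the related hydroxyproline dehydrogenase. Prodh2 had 38.6, 57.5 and 83.0 CPM in old AL mice, against 73.3, 98.9 and 149 CPM in young AL mice (-0.76, SE 0.095, adjusted p = 1.2e-12). Aldh4a1, the dehydrogenase that acts after either enzyme, was at -0.53 (SE 0.070), and Oat, ornithine aminotransferase, at -0.33 (SE 0.14).

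The promoters of the aspartate aminotransferase pair are shown because the age estimates and the fitted rhythms of the pair differed in size. The difference within the pair was not tested, nor was any link to the promoter letters. Each holds the 250 bases before the RefSeq start on the minus strand of GRCm38.p6, written in the direction of the gene, with Got1 at chr19:43524606-43524855 and Got2 at chr8:95888402-95888651. Capitals mark CCAAT boxes (CCAAT on either strand) in Got1 and a TATA box match (TATAAA on either strand) in Got2.
Got1: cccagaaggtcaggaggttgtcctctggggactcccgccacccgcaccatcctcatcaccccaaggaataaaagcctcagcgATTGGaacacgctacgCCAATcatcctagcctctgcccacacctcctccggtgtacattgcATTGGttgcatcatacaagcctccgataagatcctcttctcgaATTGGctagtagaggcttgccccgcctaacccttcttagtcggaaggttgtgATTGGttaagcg
Got2: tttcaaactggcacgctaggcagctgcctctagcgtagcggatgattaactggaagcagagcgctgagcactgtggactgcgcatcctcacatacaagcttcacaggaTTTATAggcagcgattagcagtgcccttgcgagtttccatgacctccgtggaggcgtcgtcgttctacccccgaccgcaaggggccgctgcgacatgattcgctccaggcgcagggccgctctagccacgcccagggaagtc
Got1 held 5 CCAAT boxes, the nearest of them 12 bases before the start, and no match of the other motifs searched. Got2 held none, and its TATA match lay 142 bases before the start. A CCAAT box was found in 22 of the 41 members with a window (53.7%), against 37.4% of all windows, and TATAAA in 5 members (12.2%), against 13.6% of all windows. Members were counted as genes, and 3 of them had 2 windows, either of which could hold the match. The shares of all windows count each window once, so the 2 kinds of share are not fully alike. The FOXO element GTAAACA was found in 1 member, Hibadh, and in 3.65% of all windows, and the HNF4A element CAAAGTCCA in 1 member, Pipox, and in 0.475%. The C/EBP element TTGCGCAA and the D-box forms TTATGTAA and TTACGTAA were found in no member and in 0.183%, 0.938% and 0.119% of all windows.

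Next, old and young mice were compared within each CR condition. No member rose with age in any CR group, and 7 fell in CR-day-12h, 7 in CR-day-2h, 7 in CR-spread, 4 in CR-night-12h and 1 in CR-night-2h. The share of all genes that fell by the same rule was 1.46% in CR-day-12h, 3.52% in CR-day-2h, 2.98% in CR-spread, 3.18% in CR-night-12h and 2.4% in CR-night-2h, and the share that rose was 5.22%, 5.71%, 5.53%, 4.54% and 2.09% in the same order. The median log2 fold change of the members was -0.30 in CR-day-12h, -0.33 in CR-day-2h, -0.32 in CR-spread, -0.26 in CR-night-12h and -0.21 in CR-night-2h. On the adjusted p alone, the members lower in old mice numbered 32 in CR-day-12h, 33 in CR-day-2h, 31 in CR-spread, 21 in CR-night-12h and 16 in CR-night-2h, when 13%, 23.1%, 16.2%, 20.6% and 16.3% of all genes were, in the same order. There were 2 members higher in CR-night-12h and 3 in CR-night-2h. Of the 22 members that fell under AL, 13 fell in no CR group, as did 402 of the 547 genes in all that fell under AL (73.5%). The median of the 22 was -0.82 under AL, a value that their choice helped to set, and between -0.49 and -0.28 in the CR groups. A further 4 members, Bhmt, Gldc, Gpt and Oat, fell in a CR group and not under AL, and 22 fell in no condition. The shares of all genes with these 2 patterns were not counted, so neither number sets the members apart from other genes. In CR-day-12h the count was 5 without the 2 libraries that stood apart, since Agxt (-0.57) and Oat (-0.54) then missed the fold threshold.

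Sdsl was the only member to fall in all 6 feeding conditions. Its call in CR-night-2h, the only call in that group, was lost in 1 of the alternative analyses. It was also the member with the fewest reads, with a median of 32 a liver and a counting error of 17.7% at that median. In the CR groups its log2 fold change lay between -0.77 (CR-night-2h, SE 0.15, edgeR adjusted p = 6.6e-06) and -1.23 (CR-day-2h, SE 0.15, adjusted p = 4.0e-13). In CR-day-2h it had 1.67, 3.71 and 5.78 CPM in old mice, against 4.38, 8.58 and 17.1 CPM in young mice, with little overlap. Its partner Sds fell in 4 of the 5 CR groups, with log2 fold changes of -0.60 to -1.07, and was at -0.33 (SE 0.24) in CR-night-2h. In CR-night-12h Sds was near the threshold (-0.60, SE 0.25, adjusted p = 0.039) and missed it at -0.58 without the 2 libraries. Agxt fell in CR-spread (-0.72, SE 0.16, adjusted p = 9.2e-05), CR-day-12h (-0.63, SE 0.16, adjusted p = 0.00097) and CR-day-2h (-0.62, SE 0.16, adjusted p = 0.00051). In CR-spread Agxt had 28.3, 98.1 and 157 CPM in old mice, against 78.8, 157 and 227 CPM in young mice, so that the groups overlapped. Gldc, the glycine decarboxylase, fell in CR-day-2h only, where it had 53.1, 121 and 207 CPM in old mice, against 117, 223 and 279 CPM in young mice (-0.82, SE 0.15, adjusted p = 2.5e-06).

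The aminotransferases and proline enzymes made up most of the other calls. Got1 fell in CR-day-12h (log2 fold change -0.97, SE 0.23, edgeR adjusted p = 0.00042) and CR-spread (-0.93, SE 0.23, adjusted p = 0.00054), and was at -0.30 in CR-night-2h, -0.41 in CR-night-12h and -0.57 in CR-day-2h. In CR-day-12h it had 36.4, 150 and 377 CPM in old mice, against 75.3, 346 and 817 CPM in young mice. The Got2 estimate stayed between -0.22 and -0.086 in the 5 CR groups. Gpt fell in CR-night-12h (-0.63, SE 0.10, adjusted p = 5.8e-08) and CR-day-2h (-0.60, SE 0.10, adjusted p = 1.9e-07), and in CR-night-12h it had 71.8, 121 and 244 CPM in old mice, against 131, 187 and 268 CPM in young mice. Gpt2 was between -0.34 and -0.26 in the CR groups. Prodh fell in CR-night-12h (-0.74, SE 0.15, adjusted p = 9.4e-06) and CR-spread (-0.62, SE 0.15, adjusted p = 0.00028), and Prodh2 in CR-day-2h (-0.61, SE 0.095, adjusted p = 1.9e-08). Prodh had 43.7, 122 and 197 CPM in old CR-night-12h mice, against 119, 185 and 323 CPM in young CR-night-12h mice. The remaining calls were Bhmt in CR-day-12h (-0.75) and CR-day-2h (-0.60), Acmsd in CR-day-12h (-0.74), Oat in CR-day-12h (-0.60), and Hal (-0.88) and Gls2 (-0.68) in CR-spread. The Acmsd call rested on the young CR-day-12h liver at 40 h (B), which had 311 CPM when the next highest of its group had 62.8 CPM. Without that liver, Acmsd was at -0.33 (SE 0.19, adjusted p = 0.19) and was not called.

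**Figure D2:**
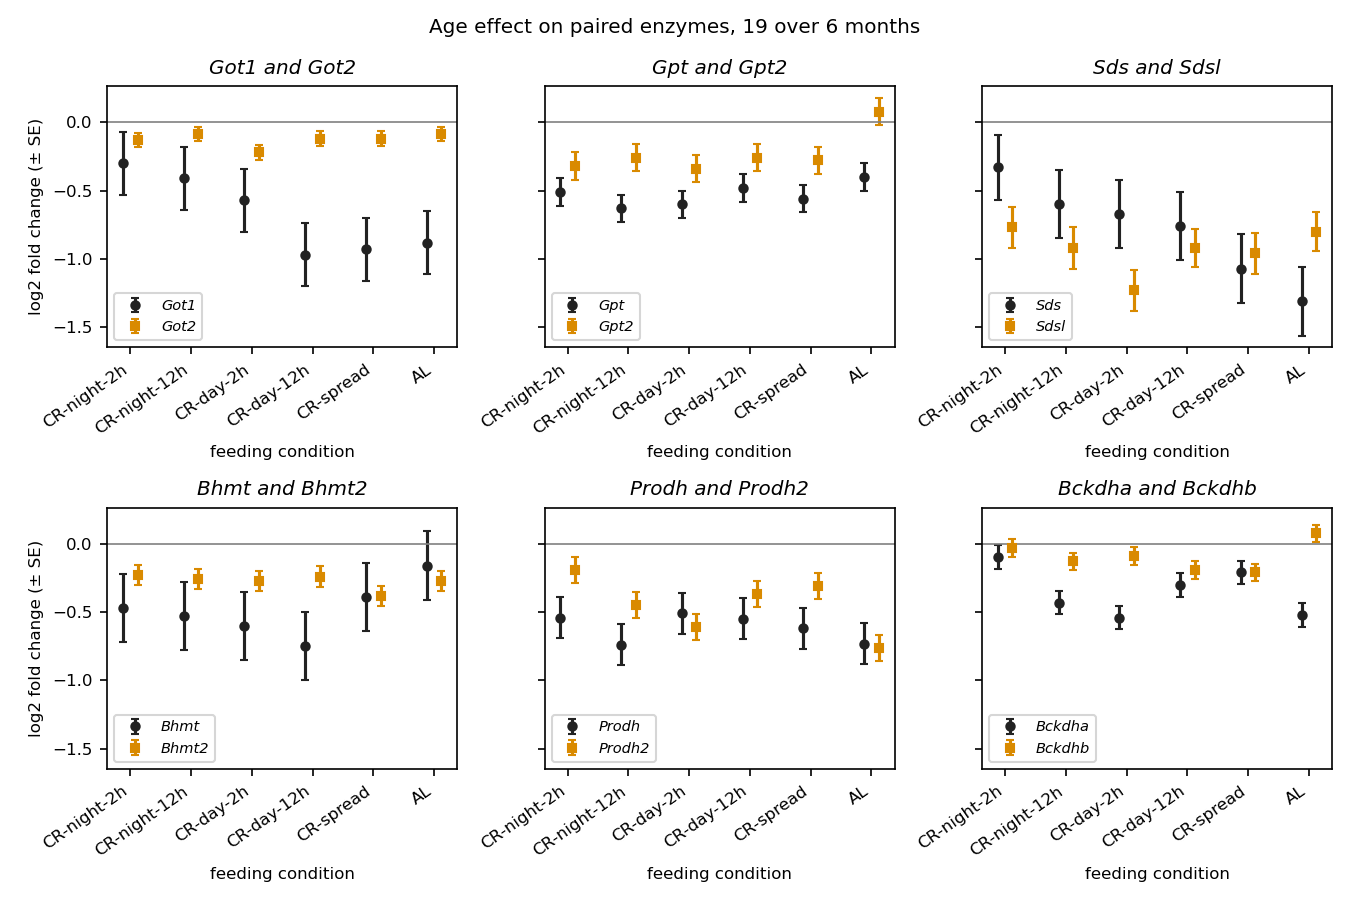
Age effect on 6 pairs of related enzymes in each feeding condition. Each panel shows the log2 fold change of 19 over 6 months with its standard error for both genes of a pair (24 livers a group), with feeding conditions along the axis. Got1 ranged from -0.97 to -0.30 and Got2 from -0.22 to -0.086 over all 6 conditions.

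To ask whether the age effect itself differed between feeding conditions, the age effect of AL was subtracted from the mean age effect of the 5 CR groups. The difference was positive, meaning a smaller fall or a higher level with age under CR, for 5 members and negative for none at both thresholds, and 24 were positive and 2 negative on the adjusted p alone. Among all genes tested, 3.89% were positive and 9.04% negative by the rule with both thresholds, and 21.4% and 20.2% on the adjusted p alone. The median difference was 0.29 over the members and 0.013 over all genes. The members were Acmsd (1.52, SE 0.23, edgeR adjusted p = 3.8e-09), Tat (0.74, SE 0.22, adjusted p = 0.0036), Pipox (0.73, SE 0.083, adjusted p = 9.9e-15), Agxt (0.65, SE 0.17, adjusted p = 0.00093) and Ivd (0.59, SE 0.080, adjusted p = 6.2e-11). The calls of Ivd, Tat and Agxt were lost in 4, 2 and 2 of the alternative analyses listed below. For Acmsd the medians were 22.9 to 31.9 CPM in the old CR groups, against 26.2 to 40.1 CPM in the young CR groups, ranges that overlapped, beside 9.44 CPM in old AL mice, against 37.0 CPM in young AL mice. Pipox medians were 264 to 299 CPM in old CR mice, against 257 to 290 CPM in young CR mice, and 181 CPM in old AL mice, against 296 CPM in young AL mice. Taking each CR group against AL, 11 members had a positive difference in CR-night-2h, 6 in CR-night-12h, 4 each in CR-day-2h and CR-day-12h, and 3 in CR-spread, and none had a negative one. Of all genes 5.18% were positive and 12% negative in CR-night-2h, 3.88% and 7.94% in CR-night-12h, 4.77% and 7.84% in CR-day-2h, 3.12% and 5.24% in CR-day-12h, and 4.06% and 8.01% in CR-spread. Acmsd and Pipox were among them in all 5 groups. Without the 2 libraries that stood apart the count for the mean of the CR groups was 7, and with hours 0 to 20 alone it was 3.

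**Figure D3:**
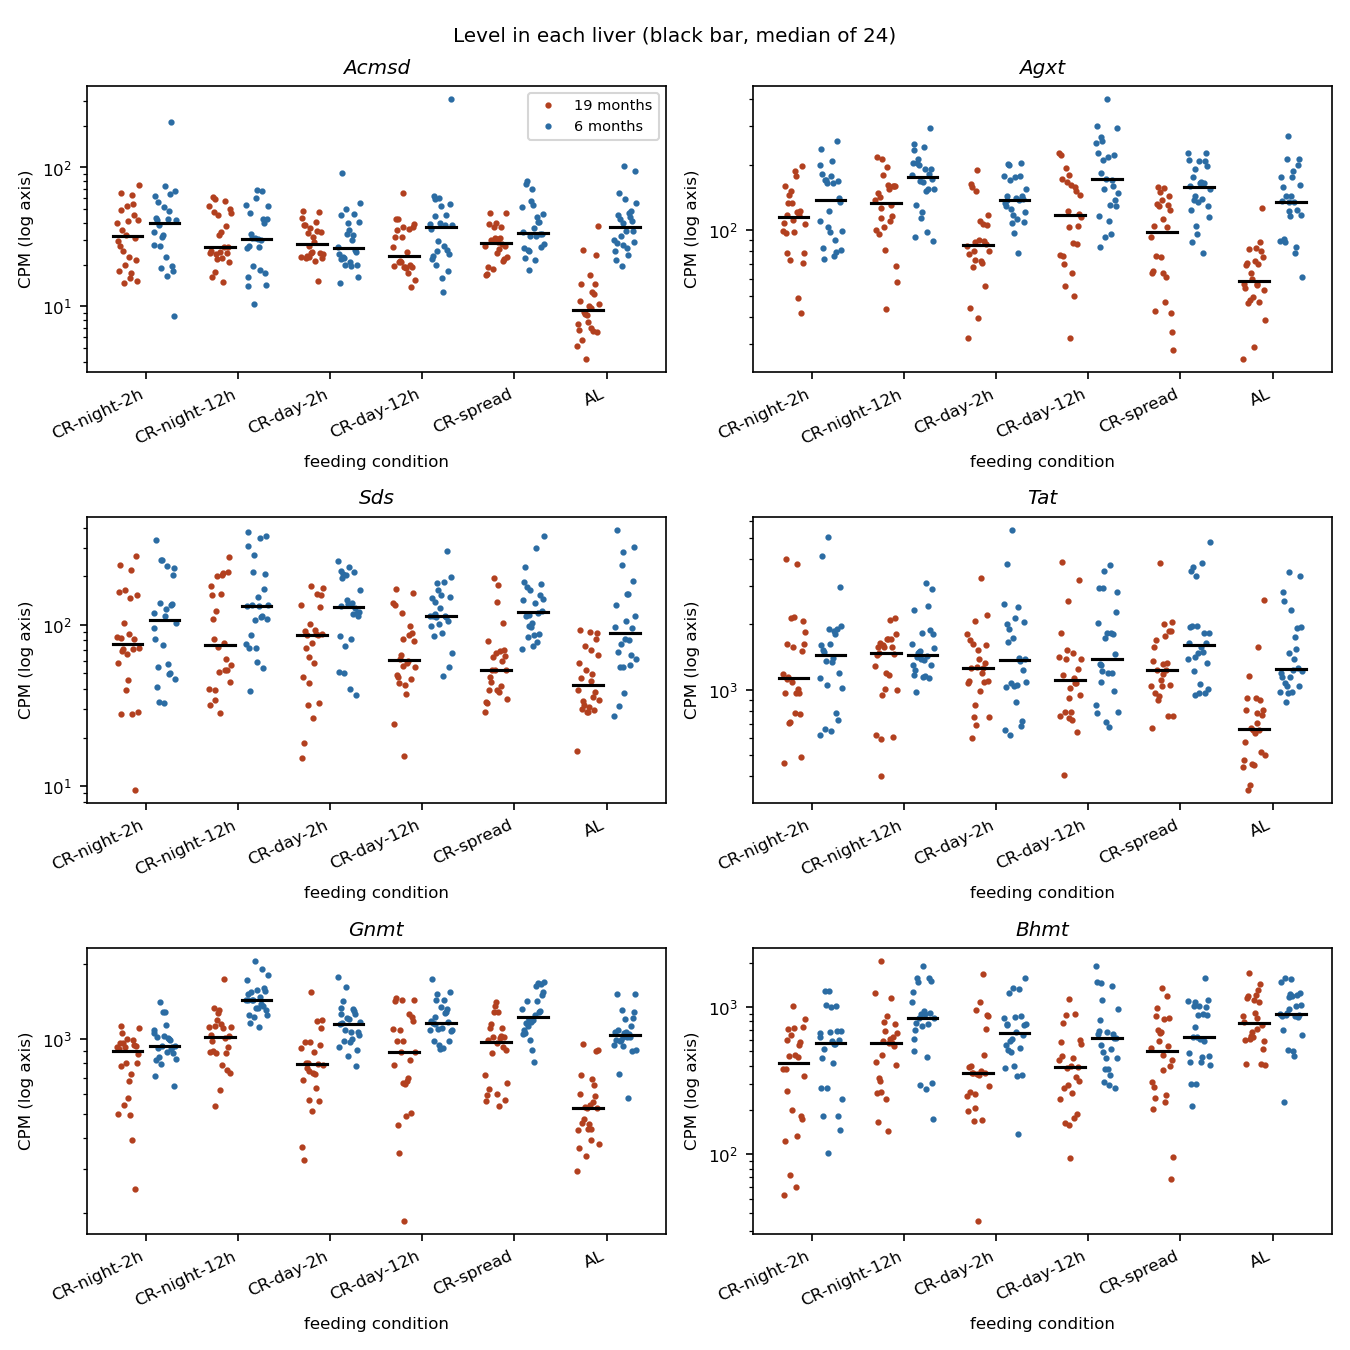
Levels of 6 enzyme genes in all 288 livers. Each point is a liver, the vertical axis is CPM on a log scale, the horizontal axis is the feeding condition with 19 months left of 6 months, and the black bar is the median of 24. Acmsd in old AL mice has a median of 9.44 CPM, below the 22.9 to 31.9 CPM of the old CR groups. The Bhmt median is lower in each old CR group than in old AL mice.

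CR and AL mice were then compared at each age. At 19 months 11 members were higher in CR than in AL mice and 1 was lower, by the mean of the 5 CR groups, when 2.68% of all genes were higher and 7.43% lower. The CR comparisons share their AL mice with the age comparison above, and a low level in old AL mice enters both. Acmsd was highest in estimate (log2 fold change 1.42, SE 0.18, edgeR adjusted p = 1.3e-12), followed by Hal (1.02, SE 0.14, adjusted p = 5.8e-11). The medians of Hal were 264 to 315 CPM in the old CR groups, against 131 CPM in old AL mice. Of the methionine enzymes, Ahcy (0.78, SE 0.093), Cth (0.76, SE 0.095) and Gnmt (0.70, SE 0.093) were higher, with adjusted p of 6.5e-14, 1.1e-12 and 2.2e-11. Ahcy medians were 602 to 630 CPM in the old CR groups, against 342 CPM in old AL mice, and Gnmt medians 791 to 1020 CPM, against 528 CPM. Hence every old CR group had a higher median than old AL mice for these genes. The other members that were higher were Agxt (0.82), Tat (0.82), Sds (0.77), Hpd (0.75), Got1 (0.74) and Gls2 (0.64), with adjusted p of 0.00061 or less. With the A livers left out, 6 members were higher.

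Bhmt was the member that was lower at both thresholds, while 7 members had a negative estimate and 2 were lower on the adjusted p alone. Taken alone against AL, CR-night-12h had no member lower at both thresholds. Bhmt encodes betaine-homocysteine methyltransferase, which remakes methionine from homocysteine with the methyl group of betaine. Its medians were 356 to 570 CPM in the old CR groups, against 777 CPM in old AL mice (log2 fold change of the mean -0.79, SE 0.18, edgeR adjusted p = 7.4e-05). The livers spread widely, from 35.1 to 2060 CPM over the old CR groups and from 406 to 1710 CPM in old AL mice. At 6 months no member passed both thresholds for the mean of the CR groups by edgeR or DESeq2, while 27 had an unadjusted p under 0.05 and 22 an adjusted p under 0.05. Of all genes 3.07% were higher and 3.16% lower at both thresholds, and 41% were called on the adjusted p alone. The estimates ran from -0.40 for Bhmt to 0.50 for Sdsl. Single CR groups against AL at 6 months gave 3 calls, which were Sdsl in CR-day-2h (0.75, SE 0.14, adjusted p = 2.5e-06), Bhmt in CR-night-2h (-0.71, SE 0.25, adjusted p = 0.020) and Got1 in CR-spread (0.59, SE 0.23, adjusted p = 0.033). The share of all genes called in either direction was 7.21% in CR-night-2h, 6.63% in CR-night-12h, 8.16% in CR-day-2h, 6.53% in CR-day-12h and 7.47% in CR-spread.

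Because the liver holds several cell types and RNA was taken from the whole tissue, markers of these types were summed beside the members. Fewer cells of a type and less RNA per cell cannot be told apart in such samples. The 5 hepatocyte markers with counts (Alb, Apoa1, Ttr, Fgb and Apob) had summed levels of 55400 to 124000 CPM in old AL mice, against 72600 to 108000 CPM in young AL mice, with none at 0. Of these only Apoa1 fell (log2 fold change -0.64, edgeR adjusted p = 4.0e-11), and the median of the 5 was -0.09. Macrophage markers summed to 118 to 644 CPM in old AL mice, against 64.0 to 216 CPM in young AL mice, and 5 of 6 rose with age. Of the stellate cell markers 4 of 5 rose, with sums of 246 to 515 CPM in old AL mice, against 149 to 222 CPM in young AL mice. All 3 tested lymphocyte markers rose. The lymphocyte sums were taken over 4 markers, which include a marker that was not tested. They were 12.1 to 55.7 CPM in old AL mice, against 5.56 to 19.9 CPM in young AL mice. In old mice all 6 macrophage markers and all 3 tested lymphocyte markers were lower in CR than in AL mice. Of the other types, 1 of 4 cholangiocyte markers and 0 of 4 sinusoidal endothelial markers rose with age under AL, and between 1 and 4 of the 4 sinusoidal markers fell with age in the CR groups. The median sum of the hepatocyte markers was 117000 to 134000 CPM in the old CR groups, against 84400 CPM in old AL mice. In young mice it was 108000 to 119000 CPM in the CR groups, against 91200 CPM in AL mice. The part of these cells in the differences of the members was not tested.

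Other genes of amino acid handling were taken from lists of 36 further catabolic genes, 16 transporters, 14 receptors and transcription factors, and 8 genes of serine and asparagine synthesis and amino acid stress. Under AL, 7 of the 35 further catabolic genes tested fell with age and 1 rose. Kyat1, a kynurenine aminotransferase, had 24.7, 40.6 and 95.0 CPM in old AL mice, against 100, 133 and 209 CPM in young AL mice (log2 fold change -1.59, SE 0.11, edgeR adjusted p = 6.6e-31), with no overlap. Acadsb of isoleucine breakdown (-0.71, SE 0.068) and Tst, a sulfur transferase (-0.78, SE 0.094), also fell. Of the transporters 5 of 16 fell and 2 rose, and the 3 with the smallest p were Slc43a1 (-2.14, SE 0.23), a carrier of branched-chain and other large neutral amino acids, the ornithine carrier Slc25a15 (-0.69, SE 0.086) and the glutamine transporter Slc38a3 (-1.09, SE 0.16). Of the 14 receptors and factors only Klf15 passed both thresholds (-0.59, SE 0.14, adjusted p = 0.00012). The glucagon receptor Gcgr was at -0.58 (SE 0.076, adjusted p = 1.1e-11) and the glucocorticoid receptor Nr3c1 at -0.33 (SE 0.063). Among the 7 tested genes of synthesis and stress, Asns, asparagine synthetase, fell (-1.04, SE 0.39, adjusted p = 0.018), Psat1 of serine synthesis rose (0.80, SE 0.35, adjusted p = 0.047) and Ddit3 was at 0.57 (SE 0.16). In the 5 CR groups, none of the 35 further catabolic genes fell with age in any group, when 1.46 to 3.52% of all genes did. Of the 35, 1 rose in CR-spread and 1 in CR-day-12h, when 5.53% and 5.22% of all genes rose.

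Daily rhythm was measured from a 24-h cosine fitted in each group, and a member was called rhythmic at an adjusted p under 0.05 with a fitted peak-to-trough fold of at least 1.5. A daily pattern far from a cosine can be missed by this fit or given a shifted peak. For its own rhythm calls, the paper cautions that day feeding and 2-h meals make daily patterns less sinusoidal. It names this as a part of its low CR-day-2h count and advises against resting much on such counts. Under AL 11 members were rhythmic in old and 18 in young mice, when 13.1% and 16% of all genes were. In CR-night-2h there were 21 in old and 17 in young mice (24.7% and 24.1% of all genes), in CR-night-12h 20 and 18 (24.6% and 19.8%), in CR-day-2h 10 and 11 (19% and 20.7%), in CR-day-12h 22 and 14 (18.8% and 23.2%), and in CR-spread 8 and 9 (9.04% and 11.6%). Of the 48 members, 38 were rhythmic in at least 1 of the 12 groups and 16 in at least 6, when 64.4% and 13.7% of all genes were. Gldc and Amt of the glycine cleavage system were each rhythmic in 11 groups, and Cbs, Got1 and Kynu in 10. No rhythm was called in any group for Dmgdh, Sdsl, Hgd, Kmo, Bckdhb, Ivd, Mccc1, Hibch, Aldh6a1 and Got2, so that 5 of the 8 enzymes of branched-chain amino acids and lysine are in this set. With the A livers left out, the calls summed over the 12 groups were 102 in place of 179.

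In young AL mice the fitted peaks of the rhythmic members ran in a sequence through the day, at the hours that the labels give. Gldc peaked at 22.9 h (peak-to-trough fold 2.32, edgeR adjusted p = 5.7e-06) and Amt at 2.0 h (2.16-fold, adjusted p = 1.2e-11), followed by Cbs at 3.7 h (2.07-fold, adjusted p = 2.5e-08). Sds peaked at 10 h (5.56-fold, adjusted p = 6.2e-08), Got1 at 10.4 h (2.77-fold, adjusted p = 0.0013) and Tdo2 at 9.9 h (1.66-fold, adjusted p = 0.0058). The aminotransferases Gpt and Gpt2 peaked at 13 and 12.8 h, Prodh at 12.9 h, Tat at 14.3 h and Acmsd at 19.8 h. The fitted peaks of Sds, Got1 and Tdo2 thus lay before hour 12, those of the alanine aminotransferases, Prodh and Tat after it. Those of the glycine cleavage subunits lay near hour 0. The livers were taken 4 h apart, and the order of these peaks was not tested. Among the young AL livers themselves, Sds and Got1 were highest in the A liver at 12 h, with 387 and 615 CPM. In old AL mice Sds peaked at 10.2 h with a fold of 2.68 (adjusted p = 0.011), and the Got1 rhythm was not called (1.48-fold, adjusted p = 0.43). Among Got1 livers, the mean of the A and B livers at 12 h and at 36 h was 171 and 144 CPM in old AL mice, against 493 and 485 CPM in young AL mice. The test of a difference between the rhythms of old and young AL mice called no member, with 7 at an unadjusted p under 0.05, and 0 by limma on RPKM. It called 1 gene of all tested (0.00818%).

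CR-night-2h and CR-day-2h mice are fed 12 h apart, and were compared to ask how far the enzymes follow the meal. The level over the whole day did not pass both thresholds for any member at either age by edgeR or DESeq2, with 8 members in old and 10 in young mice at an unadjusted p under 0.05, when 0.393% and 0.638% of all genes passed. The estimate was lower in CR-night-2h for 18 members in old and 42 in young mice. In young mice Prodh2 (log2 fold change -0.46, edgeR adjusted p = 0.00061) and Bckdha (-0.31, adjusted p = 0.023) passed the adjusted p alone, and in old mice none did. The rhythms differed by the test of both cosine terms for 27 members in old mice and 22 in young mice, when 46.7% and 37.7% of all genes did. With the A livers left out, the sum over both ages was 25 in place of 49. Of the 9 members rhythmic in both groups of young mice, 7 passed that test (82.4% of all genes rhythmic in both), and all 7 such members of old mice passed it (97% of all such genes).

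**Figure D4:**
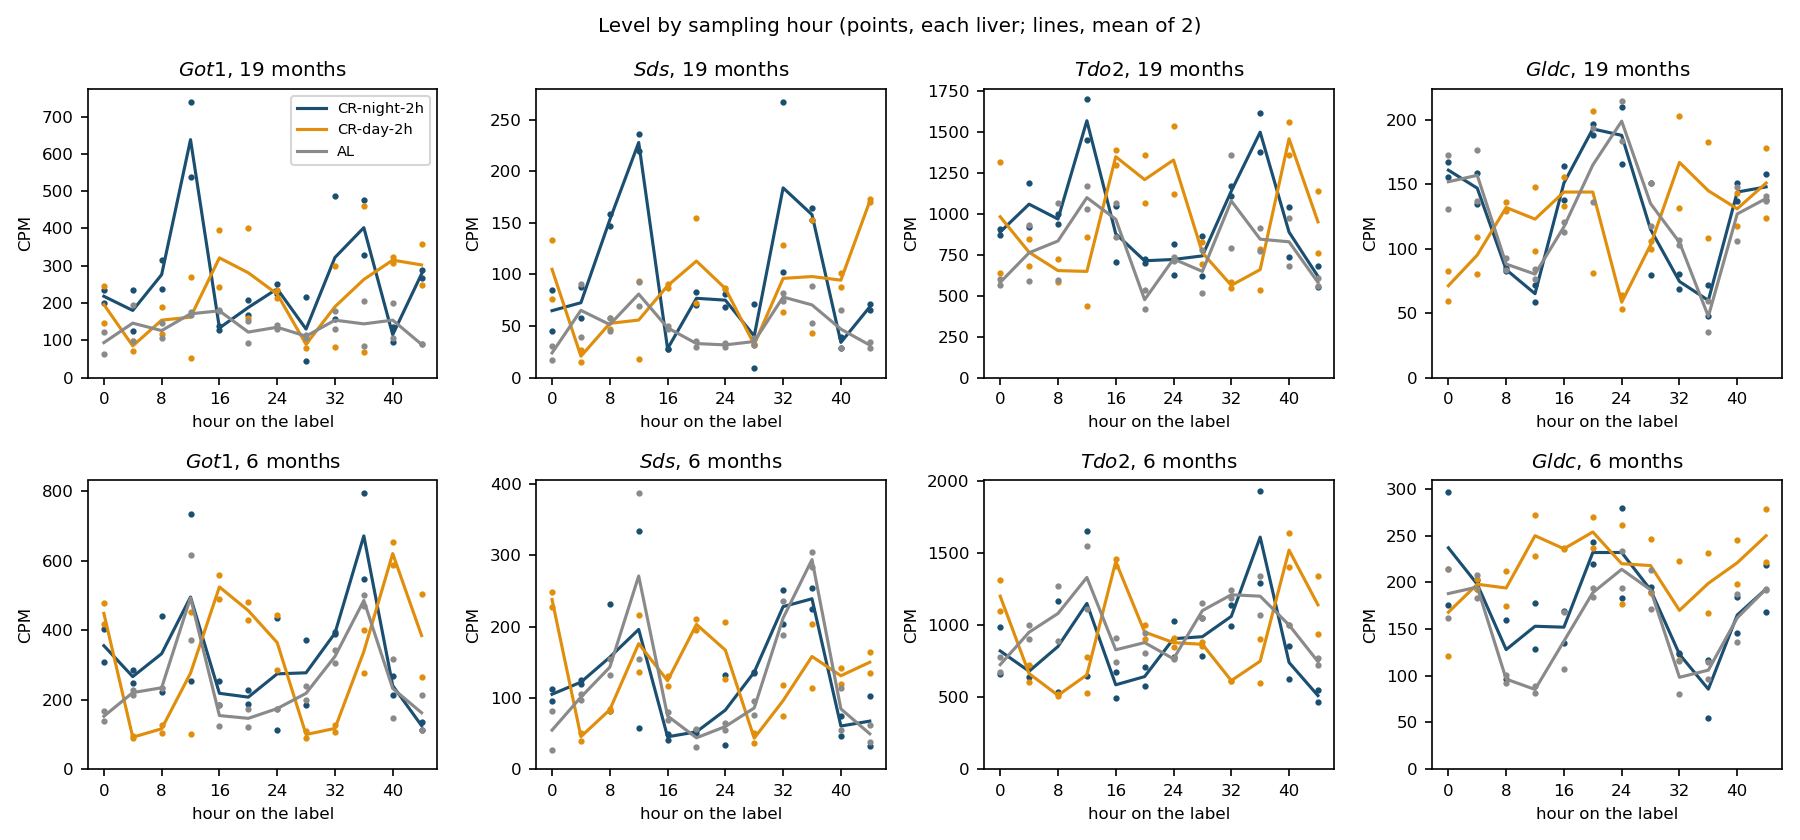
Levels of 4 enzyme genes by sampling hour. Points are livers, lines join the mean of the A and B livers, the horizontal axis is the hour on the label and the vertical axis is CPM, with CR-night-2h, CR-day-2h and AL in colour and 19 months above 6 months. In young mice Got1 reaches 495 and 671 CPM at 12 and 36 h in CR-night-2h, and 524 and 620 CPM at 16 and 40 h in CR-day-2h.

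Of all members, Got1 had the largest fitted difference between the 2 rhythms in young mice (11.3-fold from peak to trough of the difference). In young CR-night-2h mice it peaked at 9.2 h (fitted fold 2.28, edgeR adjusted p = 0.014), against 18.2 h in CR-day-2h mice (5.93-fold, adjusted p = 1.4e-07), and the rhythms differed (adjusted p = 1.3e-07). The mean of the A and B livers was 266 and 277 CPM at 4 and 28 h in CR-night-2h mice, against 91.7 and 99.4 CPM in CR-day-2h mice. At 16 and 40 h it was 218 and 240 CPM in CR-night-2h mice, against 524 and 620 CPM in CR-day-2h mice. Under day feeding Got1 was thus low at 4 and 28 h and high at 16 and 40 h, and at 0 and 24 h it was also high, with means of 448 and 364 CPM. The B livers alone gave 7.1 h in CR-night-2h, against 18.6 h in CR-day-2h, and the A livers 10 h, against 17.9 h. Its partner Got2 was rhythmic in no group.

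The peaks of Sds and Tdo2 differed between night and day feeding at both ages. In young mice Sds peaked at 8.1 h in CR-night-2h, against 18.3 h in CR-day-2h (rhythm difference, edgeR adjusted p = 3.5e-06), and in old mice at 9.5 h, against 18 h (adjusted p = 1.9e-05). Tdo2 peaked at 9.1 h in CR-night-2h, against 19.2 h in CR-day-2h, in young mice (adjusted p = 1.2e-08), and at 10.3 h, against 19.8 h, in old mice (adjusted p = 2.1e-09). For both genes the night-fed peak lay close to the AL peak, which was 10.2 h in old and 10 h in young mice for Sds and 10.7 h in old and 9.9 h in young mice for Tdo2. At 16 h the mean of the A and B livers for Tdo2 was 585 CPM in young CR-night-2h mice, against 1440 CPM in young CR-day-2h mice. For Tat the peaks in young mice were 13 h in CR-night-2h, against 14.7 h in CR-day-2h, and the rhythms did not pass the test of a difference (adjusted p = 0.45), nor did those of Acmsd, at 21.3 h, against 18.7 h (adjusted p = 0.18). In old mice the Acmsd rhythms passed it (adjusted p = 2.8e-05), with a peak at 20.3 h in CR-night-2h mice and no rhythm called in CR-day-2h mice, while those of Tat did not (adjusted p = 0.11). The young CR-night-2h peak of Acmsd includes a liver at 24 h (B) with 213 CPM, when the next highest of its group had 73.2 CPM.

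For the glycine cleavage subunits and Cbs, calls in CR-day-2h were made in old mice and not in young mice. In young CR-day-2h mice Gldc (1.27-fold, edgeR adjusted p = 0.35), Amt (1.03-fold, adjusted p = 0.96) and Cbs (1.29-fold, adjusted p = 0.13) were not called rhythmic. In old CR-day-2h mice Gldc peaked at 13.3 h (1.82-fold, adjusted p = 0.0040), Amt at 14.4 h (1.92-fold, adjusted p = 1.1e-07) and Cbs at 15.8 h (2.20-fold, adjusted p = 4.1e-09). All 3 were rhythmic in CR-night-2h mice at both ages, with peaks of 22.0, 0.0 and 1.8 h in old and 23.0, 2.0 and 2.3 h in young mice. In CR-day-12h the calls did not follow this pattern, since Gldc and Amt were rhythmic at both ages and Cbs in young mice only (1.48-fold in old and 1.58-fold in young mice). The difference between ages under day feeding was not tested.

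**Figure D5:**
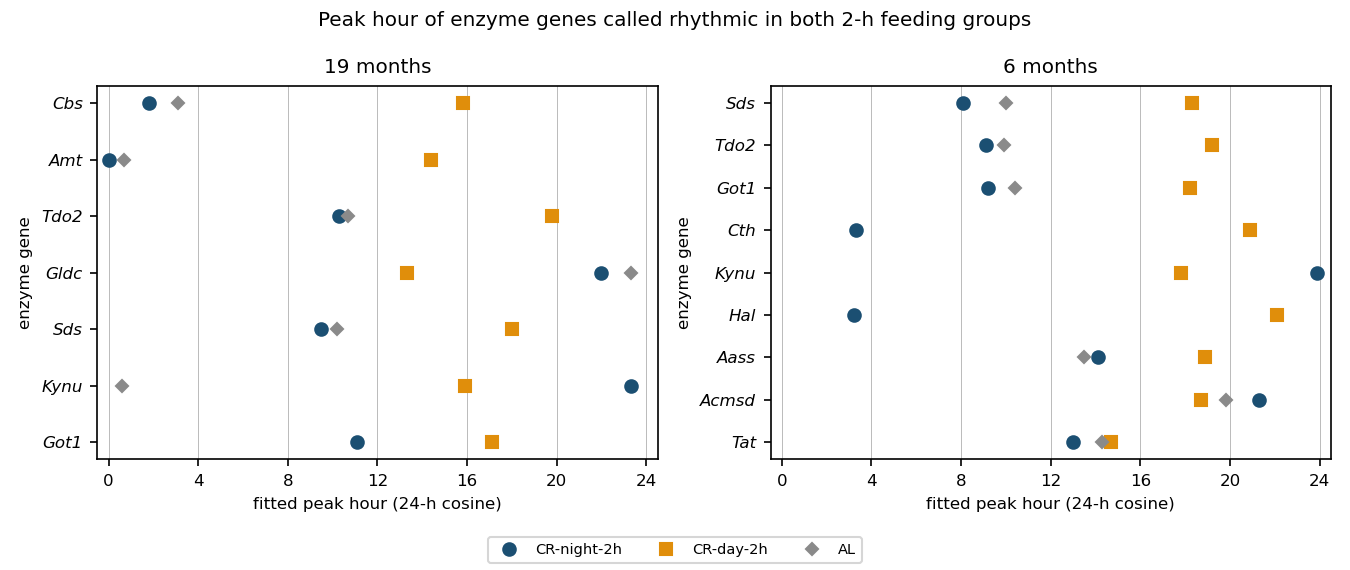
Fitted peak hour of the enzyme genes called rhythmic in both CR-night-2h and CR-day-2h mice. Rows are genes, the horizontal axis is the peak hour of the 24-h cosine, symbols are the feeding conditions, and the AL symbol is shown where AL was also rhythmic, with 19 months left of 6 months. In old mice Cbs peaked at 1.8 h in CR-night-2h and at 15.8 h in CR-day-2h.

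The fitted peaks were also set beside those of AL mice of the same age, for members rhythmic in both. In old mice 11 of 11 such members in CR-night-2h and 10 of 10 in CR-night-12h peaked within 4 h of the AL peak, and in young mice 14 of 14 and 13 of 13 did. Of all genes rhythmic in both groups compared, 96% and 98.5% did in old mice and 96.6% and 97.5% in young mice. In CR-day-2h it was 0 of 6 in old and 2 of 7 in young mice, with medians of 9.6 and 5.4 h from the AL peak, and in CR-day-12h 1 of 5 and 2 of 11, with medians of 6.5 and 5.2 h. Over all such genes the shares within 4 h were 4.02% in old and 31.4% in young mice in CR-day-2h, and 12.6% and 31.1% in CR-day-12h. In CR-spread 4 of 5 in old and 6 of 8 in young mice were within 4 h, when 90.8% and 90% of all such genes were. These counts describe fitted peaks and share the AL mice.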

How the data were processed

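The labels map the 288 libraries to 12 groups of 24 livers from separate mice. The deposited counts were made by the authors with cutadapt, STAR and featureCounts (versions and genome build not given in the sources used here), from polyA RNA libraries, and are whole reads per gene, not normalized. The deposited RPKM values, which the authors computed as reads per kilobase of transcript, scaled by depth, for 10248 genes, were used for levels between genes and for an alternative test on log2(RPKM + 0.1). Each library's counts matched its own RPKM column best (288 of 288). The labels give 12 h light and 12 h dark, while the methods state constant darkness during collection.

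Counts were scaled by TMM and filtered by expression, leaving 12228 genes, and tested with edgeR 4.0.16 in R 4.3.3 (quasi-likelihood, 12 group means, shared spread, biological coefficient of variation 0.263). Calls needed a Benjamini-Hochberg adjusted p under 0.05 over all 12228 genes and a fold change of at least 1.5, and rhythm differences the adjusted p alone. Alternatives were DESeq2 1.42.0, RLE scaling, no filter, a replicate block, sampling hours in the model, each replicate letter or cycle left out, single libraries left out (chosen after seeing the data), each feeding condition alone, limma 3.58.1 on RPKM, and clock hours as a factor. On simulated data of 12228 genes, 197 of 200 changes of 2-fold were recovered for age in AL and 122 of 200 for the AL rhythm in young mice, with 1 and 7 false calls. Apart from these changes, each simulated gene had the same mean in all groups and hours, and a spread set by its level alone. Livers that stand apart, variation shared between genes and changes near 1.5-fold were not simulated.

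The members and lists were chosen with earlier results of these data known. Full values are given for called members with the smallest p, at most 4 a pathway and comparison, and for isozyme pairs, and for the 3 genes with the smallest p of each other list, except that 1 of these receptors or factors is not reported here and Klf15 was chosen after its values were seen. For the replicate letters, mean deviations of the A livers from the mean at the same hour correlated between groups at -0.302 to 0.423 over 66 pairs of groups. The median was 0.045, and 26 pairs were over 0.1. Being a comparison between groups, it cannot decide whether the letters mark sets of livers within a group. Promoter letters are from RefSeq (GRCm38.p6), where 41 of 48 members matched by symbol. Differential expression tables of the study were not used here. Counting error limits the lowest member most: Sdsl had 9 to 126 reads a liver (median 32), a counting error of 17.7% at the median. The other members had at least 43 reads in every liver.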

Additional observations from a re-analysis of the deposited data

Results flagged for a closer look

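The age effect differed between a CR condition and AL, by the test of the difference itself, in the following cases. Each value is the log2 age effect under CR minus that under AL, and the comparisons share their AL mice. For Acmsd it was 1.49 in CR-night-2h, 1.84 in CR-night-12h, 1.76 in CR-day-2h, 1.11 in CR-day-12h, 1.40 in CR-spread and 1.52 for the mean of the CR groups. Without the young CR-day-12h liver at 40 h (B), where Acmsd stood apart, its value in CR-day-12h was 1.51. Acmsd was also high in the young CR-night-2h liver at 24 h (B), with 213 CPM when the next highest of its group had 73.2 CPM. That liver was not left out on its own. For Pipox the value was 0.95 in CR-night-2h, 0.66 in CR-night-12h, 0.71 in CR-day-2h, 0.67 in CR-day-12h, 0.66 in CR-spread and 0.73 for the mean. Hal gave 0.75 in CR-night-2h, 0.73 in CR-night-12h, 0.59 in CR-day-2h and 0.61 in CR-day-12h, and the mean did not pass the fold threshold. Tat gave 0.86 in CR-night-2h, 0.79 in CR-night-12h, 0.76 in CR-day-2h and 0.74 for the mean. Ivd gave 0.66 in CR-night-2h, 0.60 in CR-day-12h, 0.59 in CR-spread and 0.59 for the mean, and Agxt 0.90 in CR-night-2h, 0.78 in CR-night-12h and 0.65 for the mean. In CR-night-2h alone, Sds was at 0.97, Ftcd at 0.69, Gnmt at 0.68, Haao at 0.65 and Hpd at 0.63, and in CR-night-12h alone Cth was at 0.80. Whether the CR groups differed from each other in these values was not tested.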

How the results depend on the processing

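Of the 72 single results tested, 36 kept their call or lack of one under every alternative. With the replicate block, all 72 did, and the counts were 22 falls under AL and 26 calls of a fall over the CR groups, as without it. DESeq2 and RLE scaling each gave 20 falls under AL, and of the 22 called members 17 kept the call under every alternative run, the exceptions being Amdhd1, Got1, Hgd, Pipox and Sardh. Outside age under AL the calls lost most often were Sds in CR-night-12h (8 alternatives), Bhmt in CR-day-2h (5), Sds in CR-day-12h (4), Acmsd in CR-day-12h (4) and the higher age effect of Ivd under CR (4). Without a threshold on the fold the counts were 36 falls under AL, 133 calls over the CR groups, 24 members with a higher age effect under CR than AL, 22 members called between CR and AL at 6 months and 34 higher at 19 months, and 2 between CR-night-2h and CR-day-2h at 6 months. With hours 24 to 44 alone the calls over the CR groups were 16, and with hours 0 to 20 alone 3 members had a higher age effect under CR. Leaving out replicate A or B gave 18 to 23 falls under AL, 23 to 29 calls over the CR groups, 5 to 7 members with a higher age effect under CR, 6 to 14 members higher in CR at 19 months, 102 to 174 rhythm calls against 179, and 25 to 40 rhythm differences against 49. Without the 2 libraries of highest scaling factor, a choice made after seeing the data, the counts were 22 falls under AL, 23 calls over the CR groups, 7 members with a higher age effect under CR and 14 members higher in CR at 19 months. No result changed direction.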

Other observations

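Within each AL group, levels of many members varied together from liver to liver. The correlation of a member's log2 level with the mean of the other members, over 24 livers that share the sampling hours and the scaling of the library, was 0.90 in old and 0.79 in young mice for Hpd, and 0.85 and 0.51 for Ahcy. For Acmsd it was 0.77 in old and -0.09 in young mice, and for Bhmt 0.30 and 0.16. These are descriptions with no test.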
